A study of Mus musculus with 32 samples.

Results

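The triad calcium release complex was described through 10 genes, *Ryr1*, *Cacna1s*, *Cacnb1*, *Cacna2d1*, *Cacng1*, *Stac3*, *Jph1*, *Jph2*, *Trdn* and *Casq1*, out of 54838 genes in the count table. They were chosen by name, for the place of their proteins in the complex, and not by a measured value, though earlier results of these data were known. The study followed mice that lack myotubularin, an endosomal lipid phosphatase whose loss causes X-linked myotubular myopathy, and asked how muscle changes with age in the *Mtm1* knockout (KO). RNA sequencing was done on skeletal muscle, the tibialis anterior (TA) per the study's methods, from wild-type (WT) and KO mice at postnatal day 1 (P1), P14, P21 and P35, with 4 libraries for each genotype and age and 32 in all. All 8 groups were on the C57BL6/J background and no group was treated. The KO allele, a deletion made in exon 4, is carried in every tissue, so that muscle, nerve and other organs lack the protein together. The labels do not say whether libraries of a group came from separate mice, so p-values measure the spread between these libraries.

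The 10 genes were read in every library: the lowest level of any of them was 31.2 CPM (counts scaled to a common library size), of *Stac3* in KO P1 replicate 4. All 10 passed the filter on low counts in every comparison. Libraries held 49321035 to 85631408 counts. *Mtm1* itself stood at 5.26 to 6.02 CPM in WT and 2.32 to 3.91 CPM in KO at P1, and at 20.7 to 24.9 CPM in WT and 3.32 to 3.95 CPM in KO at P35, so the genotype labels held in these libraries. Some libraries stood apart over the whole set. KO P1 replicate 4 and KO P14 replicate 1 had the lowest level of their group in all 10 genes, and WT P35 replicate 1 had the highest in all 10, as did WT P1 replicate 2 and KO P1 replicate 3. WT P35 replicate 3 had the lowest in 8 of the 10.

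In a skeletal muscle fibre, the triad is the place where a T-tubule, an inward fold of the surface membrane, lies against the terminal sarcoplasmic reticulum on both of its sides. The dihydropyridine receptor in the T-tubule senses the change in voltage and, by physical contact, opens the ryanodine receptor, which lets calcium out of the reticulum and starts contraction. Its pore subunit is encoded by *Cacna1s* and its accessory subunits by *Cacnb1* (beta), *Cacna2d1* (alpha2-delta) and *Cacng1* (gamma). *Stac3* encodes an adaptor that the coupling needs, *Jph1* and *Jph2* encode junctophilins that hold both membranes together, *Ryr1* encodes the release channel, *Casq1* the calcium-binding protein of the reticulum and *Trdn* triadin, which ties calsequestrin to the channel. Mutations in *RYR1*, *CACNA1S* and *STAC3* cause human muscle disease.

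The genes lie on 6 chromosomes of the mouse genome (GRCm38), all counted over their exons. On the plus strand are *Cacna1s* at chr1:136052750-136119822, *Cacna2d1* at chr5:15934691-16374511, *Stac3* at chr10:127501686-127508823 and *Trdn* at chr10:33080554-33476709. On the minus strand are *Jph1* at chr1:16964560-17097889, *Casq1* at chr1:172209894-172219868, *Jph2* at chr2:163336242-163397993, *Ryr1* at chr7:29003344-29125179, *Cacnb1* at chr11:98001508-98023034 and *Cacng1* at chr11:107703218-107716522. A promoter sequence from RefSeq was at hand for 6 of the 10 (build GRCm38.p6). The stretch from 250 to 51 bases before the start is shown for 5, because these carry the contrast described later: *Cacnb1* and *Cacna2d1*, accessory subunits that moved in opposite directions in KO muscle, beside *Cacna1s*, *Ryr1* and *Casq1*, the pore subunit, the release channel and the store. Capitals mark E-boxes (CANNTG) and GC boxes (GGGCGG), both searched on both strands.

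Cacna1s: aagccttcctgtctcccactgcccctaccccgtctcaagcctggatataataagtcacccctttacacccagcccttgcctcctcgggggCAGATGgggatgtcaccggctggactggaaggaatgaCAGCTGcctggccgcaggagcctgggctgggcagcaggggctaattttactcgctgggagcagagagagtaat
Casq1: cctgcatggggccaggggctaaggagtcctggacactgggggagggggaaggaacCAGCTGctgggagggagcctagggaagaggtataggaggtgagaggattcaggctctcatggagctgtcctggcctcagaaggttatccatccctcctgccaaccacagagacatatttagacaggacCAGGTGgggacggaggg
Ryr1: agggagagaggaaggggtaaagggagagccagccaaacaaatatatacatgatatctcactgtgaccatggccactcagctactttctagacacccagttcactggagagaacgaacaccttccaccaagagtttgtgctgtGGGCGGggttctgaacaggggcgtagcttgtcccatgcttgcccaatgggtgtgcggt
Cacnb1: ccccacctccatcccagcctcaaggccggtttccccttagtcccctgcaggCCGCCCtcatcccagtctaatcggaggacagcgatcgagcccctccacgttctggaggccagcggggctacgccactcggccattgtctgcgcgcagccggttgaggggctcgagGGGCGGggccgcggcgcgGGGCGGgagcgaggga
Cacna2d1: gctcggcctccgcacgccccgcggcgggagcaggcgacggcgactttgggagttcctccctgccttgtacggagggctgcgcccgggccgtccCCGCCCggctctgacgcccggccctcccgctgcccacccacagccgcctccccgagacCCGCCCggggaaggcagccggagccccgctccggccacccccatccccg

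These windows are chr1:136052561-136052760, + strand (*Cacna1s*), chr1:172219946-172220145, - strand (*Casq1*), chr7:29125202-29125401, - strand (*Ryr1*), chr11:98022678-98022877, - strand (*Cacnb1*, the upstream of 2 listed starts) and chr5:15934441-15934640, + strand (*Cacna2d1*). *Cacna1s* and *Casq1* each held 2 E-boxes, 1 of them with the letters CAGCTG, which 10.3% of all 32851 windows of this kind hold; any E-box was found in 59% of them. The other 3 windows held no E-box. GC boxes, found in 24.6% of all windows, numbered 3 in *Cacnb1*, 2 in *Cacna2d1* and 1 in *Ryr1*; those of the other strand read CCGCCC in the runs shown. The share of G and C was 79.5% in *Cacna2d1* and 71.5% in *Cacnb1*, against 52.5% in *Ryr1*, 59.5% in *Cacna1s*, 60.0% in *Casq1* and a median of 51.5% over all windows. The window of the other *Cacnb1* start, not shown, held no E-box and no GC box, with 60.0% G and C. Neither motif was found in the windows of *Jph2*, also not shown, at 61.0% G and C. A match is a run of letters and not a shown binding site. The RefSeq starts did not always match the gene spans given above. Both *Cacnb1* windows lay inside the span of the gene, and the end of the *Cacna1s* window reached into its gene.

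Levels within the complex were uneven. Per kilobase of exon, the store protein gene *Casq1* was far above the rest at every age, with 364 ± 43.6 CPM per kb (SD, n = 4) in WT muscle at P1 and 2729 ± 585 at P35. In WT muscle of P35 the next genes were *Jph2* (272 CPM per kb), *Trdn* (194), *Ryr1* (159), *Cacna1s* (156), *Cacng1* (137), *Jph1* (113) and *Stac3* (97.3), each overlapping its neighbour in this order. *Cacna2d1* (65.3 ± 9.84 CPM per kb) and *Cacnb1* (51.8 ± 3.39) came last and overlapped each other, below all *Stac3* libraries. In KO muscle of P35 *Cacng1* was the second, at 387 ± 81.2 CPM per kb, with no overlap with *Casq1* above it (1721 ± 365) or *Trdn* below it (198 ± 25.5). The other end of the KO order was held by *Cacna2d1*, at 37.7 ± 4.04 CPM per kb, below every *Cacnb1* library (73.7 ± 13.2). The mean of the highest gene was 26.8 times that of the lowest in WT muscle of P1 and 52.6 times at P35. In KO muscle the same quotient was 24.7 at P1 and 45.6 at P35.

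**Figure D1:**
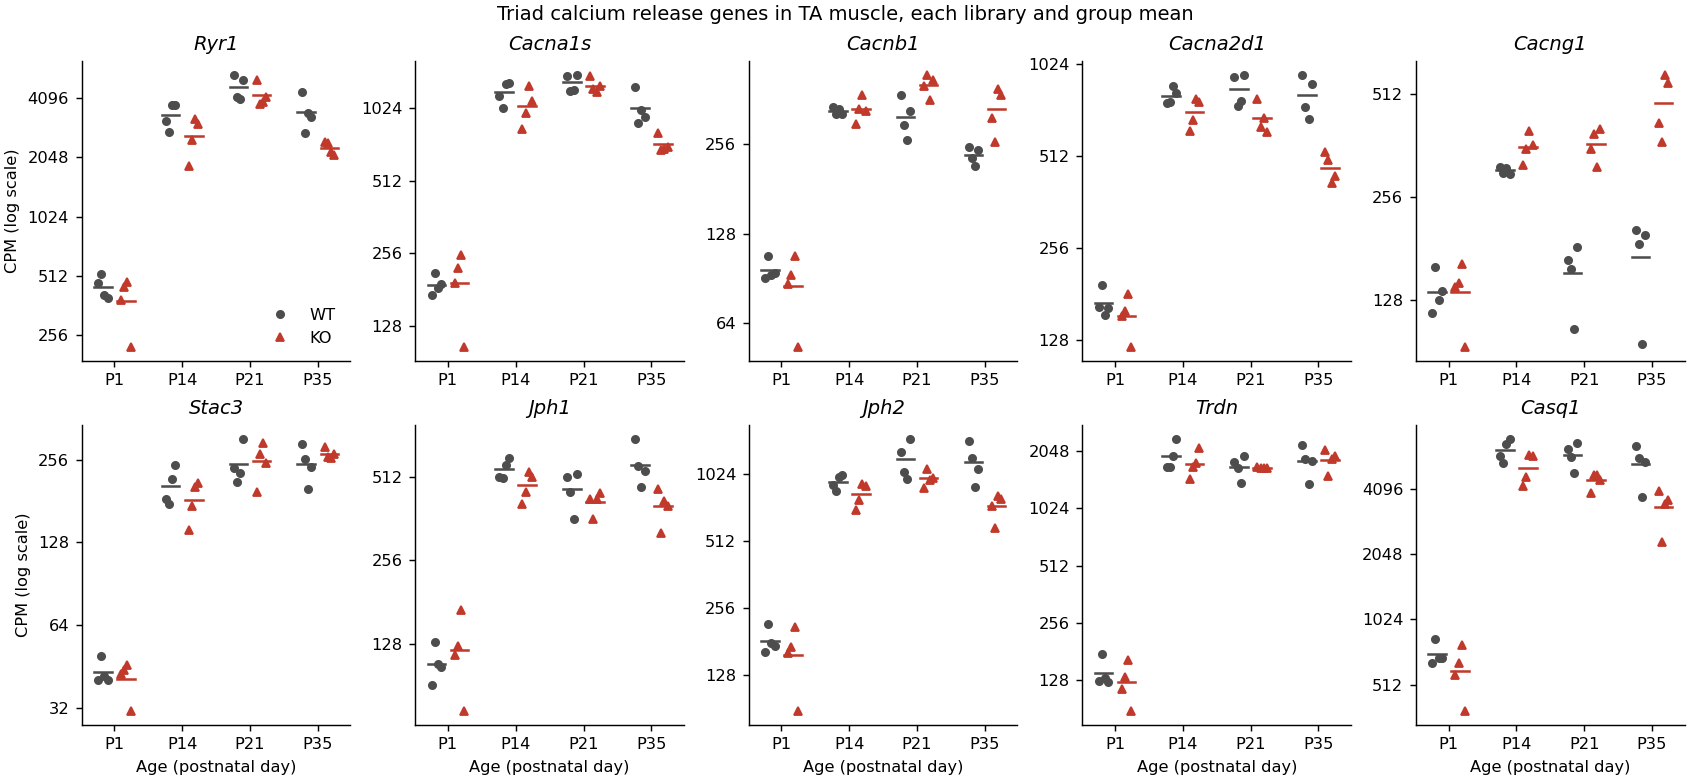
Level of each of the 10 genes (y axis, CPM on a log2 axis scaled by TMM over all 32 libraries) against age (x axis) in WT (grey circles) and KO (red triangles); each point is 1 library and each bar the mean of 4. All 10 genes rose between P1 and P14 in both genotypes, and *Cacng1* is the gene whose WT and KO libraries part most from P21 on, with all KO libraries of P21 at 314 CPM or more and all WT libraries at 183 or less.

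All 10 genes rose between P1 and P14, in WT and in KO muscle alike (edgeR's quasi-likelihood test, adjusted p under 0.01, the threshold used throughout). *Trdn* rose most, 13.7-fold in WT (log2 3.78, SE 0.171, adjusted p = 1.05e-07) and 13.9-fold in KO (log2 3.79, SE 0.225). Its 8 libraries of P1 lay between 87.7 and 176 CPM and its 8 of P14 between 1457 and 2386 CPM. *Casq1* followed at 8.63-fold in WT and 8.44-fold in KO, and *Ryr1* at 7.46-fold and 6.77-fold. The receptor's own subunits spread widely. *Cacna1s* rose 6.19-fold in WT and 5.28-fold in KO, *Cacna2d1* 4.74-fold and 4.54-fold, *Cacnb1* 3.39-fold and 3.83-fold, and *Cacng1* 2.25-fold and 2.61-fold. *Jph2* (5.13-fold and 5.15-fold), *Jph1* (4.99-fold and 3.86-fold) and *Stac3* (4.73-fold and 4.35-fold) lay between. Among all 17435 genes tested in WT muscle 33.5% rose past the same threshold and in KO muscle 29.3% of 17719 did, so a rise was common at this age though not the rule.

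The size of this rise depends on how libraries were scaled. TMM, a scaling that takes the bulk of genes as unchanged, was used. With raw library totals in its place the median of all genes moved from -0.08 to -0.85 (log2) in WT and from -0.09 to -0.80 in KO, and all 10 genes still rose, from 0.40 for *Cacng1* in WT to 3.08 for *Trdn* in KO (log2). The summed level of 6 keratinocyte genes, markers of skin, was 1528 to 5818 CPM in the libraries of P1 and at most 35.3 CPM in those of later ages. Chondrocyte genes fell as well, with 4 of 4 passed in WT and in KO and a sum of 428 to 697 CPM at P1 and 8.75 to 26.0 CPM at P14 in WT. Fibroblast genes fell in 5 of 6 (WT) and 4 of 6 (KO), macrophage genes in 5 of 6 and adipocyte genes in 3 of 4 in both genotypes, while 4 of 4 endothelial genes rose in both. Of all genes, 6456 of 17435 passed downward in WT and 5907 of 17719 in KO. The part of these in the rise was not tested.

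Between P14 and P21 *Cacng1* was the one member that passed in WT muscle, and it fell. Its 4 WT libraries of P14 gave 315, 302, 312 and 301 CPM, and those of P21 gave 168, 159, 106 and 183 CPM, with no overlap. This was a 2.02-fold fall (log2 -1.01, SE 0.142, adjusted p = 0.0018), 1 call of 10 where 9.93% of 15337 genes passed. In KO muscle the same gene went from 319, 354, 401 and 364 CPM to 354, 393, 314 and 405 CPM. These groups overlapped and the fitted change was 0.01 (log2, SE 0.101, adjusted p = 0.940). No member passed in KO muscle, where 10.3% of 15585 genes did. *Ryr1* came nearest with a log2 difference of 0.66 (SE 0.178, adjusted p = 0.0234). At an unadjusted p under 0.05 stood 3 members. No share of all genes is given at that level, so this count is not read as a result about the members. DESeq2, in place of edgeR, called *Ryr1* as well in both genotypes, at 0.47 in WT and 0.67 in KO (log2). It called 3132 of all genes in WT and 3462 in KO.

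From P21 to P35 the release channel, the pore subunit and the alpha2-delta subunit fell in KO muscle. None of the 10 passed in WT muscle by edgeR, where 4.77% of 15039 genes did. At an unadjusted p under 0.05 stood 3 members, a count not read as a result because no share of all genes is given at that level. *Cacnb1* was lower by a log2 difference of -0.44 (SE 0.0981, adjusted p = 0.0179), its groups did not overlap, and DESeq2 called 1 member, beside 2149 of all genes. *Cacna1s* (log2 -0.37, SE 0.119, adjusted p = 0.0613) and *Ryr1* (log2 -0.44, SE 0.162, adjusted p = 0.0904) also had negative values in WT, with overlapping groups, and the difference between genotypes in this change did not pass for either (adjusted p = 0.321 and 0.385 for the interaction). In KO muscle 3 passed, all downward, where 4.14% of 15734 genes passed downward. *Cacna1s* went from 1382, 1221, 1186 and 1261 CPM to 806, 687, 694 and 703 CPM, a 1.73-fold fall (log2 -0.79, SE 0.0862, adjusted p = 0.00139). *Ryr1* went from 5084, 3806, 3919.9 and 4144 CPM to 2447, 2416, 2169.9 and 2099.5 CPM, a 1.84-fold fall (log2 -0.88, SE 0.116, adjusted p = 0.0024). *Cacna2d1* fell 1.43-fold (log2 -0.52, SE 0.106), just past the threshold at an adjusted p of 0.00987. Its call was lost in 7 of the 8 fits without 1 library, all but that without KO P35 replicate 2, with adjusted p up to 0.0278. The calls of *Cacna1s* and *Ryr1* held in all 8 fits without 1 library. Over all genes the split of calls in KO muscle from P21 to P35 depended on scaling. It was 544 upward and 652 downward with TMM, and 1571 and 303 with library totals. Red cell genes moved over the same ages: 4 of 4 passed upward from P14 to P21 in both genotypes and 4 of 4 passed downward from P21 to P35. Of all genes, 855 of 15337 (WT) and 828 of 15585 (KO) passed upward from P14 to P21. From P21 to P35, 268 of 15039 (WT) and 652 of 15734 (KO) passed downward. The summed level of red cell genes at P14 was 288 to 513 CPM (WT) and 220.2 to 364 CPM (KO). At P21 it was 2079 to 2828 and 1059 to 2152 CPM, and at P35 131 to 396 and 158 to 316 CPM. The part of red cell genes in the age differences was not tested.

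Between genotypes no member passed at P1 or P14. At P1 0 of 10 passed by edgeR or DESeq2, and the smallest adjusted p was 0.669 for *Casq1* (log2 -0.24, SE 0.194), where 0.0442% of 18100 genes passed. None was at an unadjusted p under 0.05, as 10.9% of all genes were, and none had groups that did not overlap, as 8.62% did. *Ryr1* at P1 stood at 470.5, 521, 411 and 394 CPM in WT and at 386, 448, 478 and 222 CPM in KO, with the lowest value in KO P1 replicate 4. Without that library the count was again 0.

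At P14 0 of 10 passed as well, by edgeR or DESeq2, where 0.0381% of 15728 genes did by edgeR. *Cacng1* was the single member at an unadjusted p under 0.05 (6.82% of all genes) and the single one without overlap (4.84%), at 319 to 401 CPM in KO and 301 to 315 CPM in WT (log2 0.22, SE 0.0755, adjusted p = 0.624). Of the 10 fitted differences 8 were negative, with a median of -0.19. Without KO P14 replicate 1 the count was again 0. At P14 same-numbered WT and KO libraries deviated together, and with the number as a block 1.63% of all genes passed but still 0 of the 10. The blocked adjusted p was 0.0558 for *Cacng1* (log2 0.22) and 0.0478 for *Ryr1* (log2 -0.37).

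*Cacng1* was higher in KO muscle at both ages, *Cacnb1* was higher at P35, a call lost in 7 of 8 fits without 1 library, and *Cacna2d1* was lower at P35. At P35 the count of 3 of 10 stood beside 24.5% of 15595 genes, and that of 1 of 10 at P21 beside 8.13% of 15179, so neither share stood far from that of all genes. The count at P35 was 2 without any one of KO replicates 1, 3 and 4 and WT replicates 1 and 4, and 3 without any other library; the call of *Cacnb1* was lost in 7 of these 8 fits. Without overlap between genotypes were 7 of the 10 at P35, 2 upward and 5 downward, against 39.6% of all genes, and 2 of the 10 at P21 against 24.7%. The median difference of the 10 at P35 was -0.47 (log2, KO minus WT) against 0.04 for all genes. Since whole muscle was sequenced, fewer fibres with these transcripts and less transcript in each fibre cannot be told apart.

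**Figure D2:**
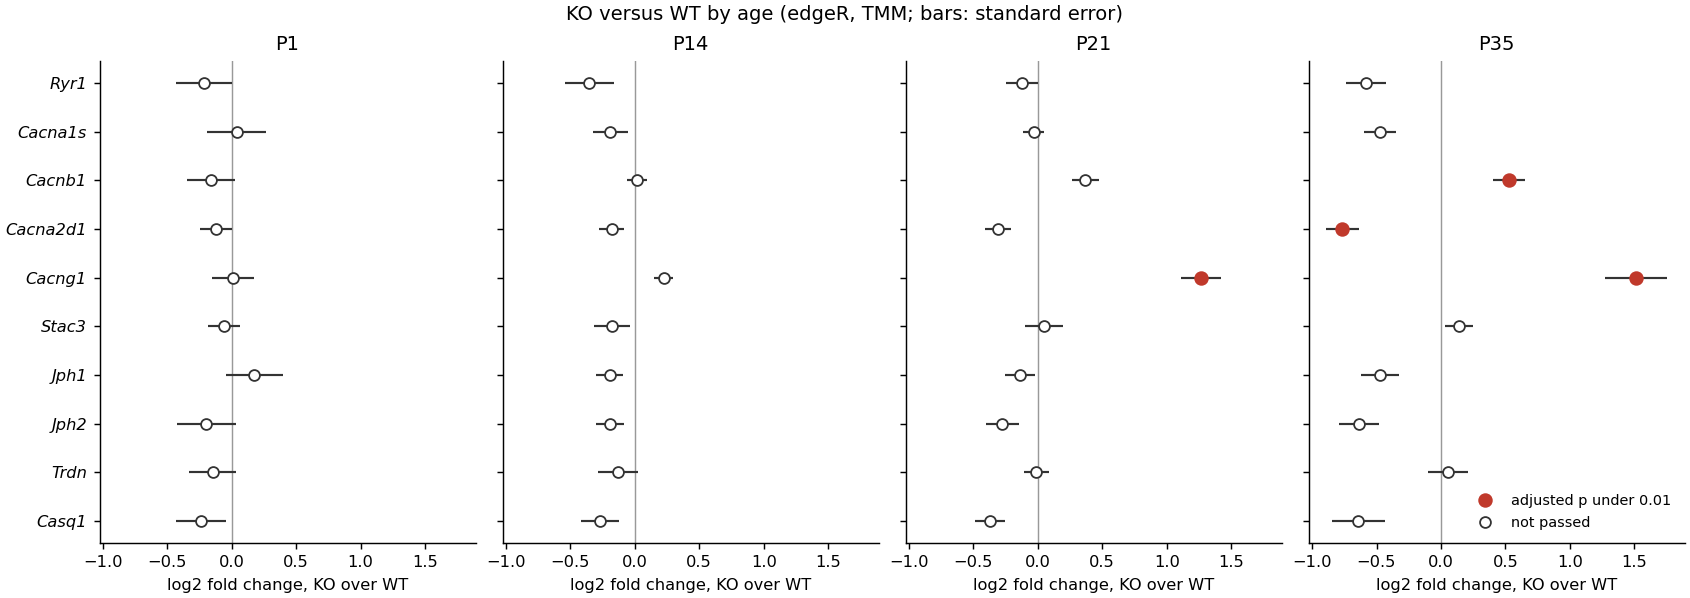
Difference between genotypes for each gene (x axis, log2 fold change of KO over WT; bars, standard error of the fit) at P1, P14, P21 and P35; filled red points passed an adjusted p of 0.01 in edgeR and open points did not. Only *Cacng1* is filled at P21 (1.27), and *Cacng1* (1.52), *Cacnb1* (0.53) and *Cacna2d1* (-0.77) are filled at P35.

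Among the accessory subunits of the voltage sensor, the gamma subunit gene *Cacng1*, whose protein is known to damp the receptor's calcium current, showed the widest gap. At P21 its KO libraries of 354, 393, 314 and 405 CPM lay above all WT libraries of 168, 159, 106 and 183 CPM, a 2.41-fold difference (log2 1.27, SE 0.154, adjusted p = 0.000993). At P35 the KO libraries stood at 423, 372, 584 and 552 CPM and the WT libraries at 206, 187, 95.1 and 199 CPM. Again no KO library reached down to WT, and the difference was 2.86-fold (log2 1.52, SE 0.243, adjusted p = 0.00119). WT P35 replicate 3, at 95.1 CPM, stood well below its group; without it the log2 difference was 1.31 with an adjusted p of 0.00082. The WT libraries of P14 stood at 301 to 315 CPM. The KO libraries of P21, at 314 to 405 CPM, overlapped them only through the lowest, replicate 3. All KO libraries of P35, at 372 to 584 CPM, lay above them. Between ages these values were set side by side without a test.

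The beta subunit, encoded by *Cacnb1*, is the cytoplasmic partner that brings the pore to the triad. It stood at 312, 259, 389.8 and 373 CPM in KO muscle of P35 and at 250.1, 229, 216 and 244 CPM in WT. The lowest KO library lay just above the highest WT library. The difference was 1.44-fold (log2 0.53, SE 0.126, adjusted p = 0.00849), under the 1.5-fold that defined a differentially expressed gene. Its call rested on the full set of libraries: it was kept without KO P35 replicate 2 and lost without any other single library, with adjusted p up to 0.0308. At P21 the KO libraries of 399, 436, 358 and 418 CPM overlapped WT at 371, 296, 264 and 329 CPM (log2 0.37, SE 0.104, adjusted p = 0.0336).

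*Cacna2d1*, the gene of the largely extracellular alpha2-delta subunit, moved the other way. Its KO libraries of P35 stood at 525, 495, 416 and 438 CPM, all below the WT libraries of 944, 743, 677 and 879 CPM. That was a 1.70-fold difference (log2 -0.77, SE 0.128, adjusted p = 0.00146), which passed without each library in turn. At P21 KO libraries of 785, 636, 683 and 613 CPM overlapped WT libraries of 925, 748, 776 and 941 CPM (log2 -0.31, SE 0.102, adjusted p = 0.0598).

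For the pore subunit gene *Cacna1s*, KO libraries of P35 stood at 806, 687, 694 and 703 CPM and WT libraries at 1251, 887, 1003 and 939.8 CPM. The genotypes did not overlap, and the difference missed the threshold (log2 -0.47, SE 0.122, adjusted p = 0.0128). At P21 they overlapped, at 1186 to 1382 CPM in KO and 1201 to 1402 CPM in WT (log2 -0.03, SE 0.0801). *Stac3*, the adaptor, was at 260.2 to 285 CPM in KO and 201 to 291 CPM in WT at P35, with overlap (log2 0.14, SE 0.109, adjusted p = 0.317).

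Counts were also set against *Cacna1s* within each library, which removes the scaling of libraries; these 3 ratios were added after the values were seen and carry no test. The ratio of *Cacng1* to *Cacna1s* counts at P35 was 0.164, 0.211, 0.0948 and 0.212 in WT and 0.525, 0.542, 0.842 and 0.785 in KO. The KO ratio was 4.06 times that of WT as a geometric mean, against 2.50 times at P21, 1.34 times at P14 and 1.01 times at P1. *Cacnb1* to *Cacna1s* was 0.200, 0.259, 0.215 and 0.260 in WT and 0.387, 0.377, 0.561 and 0.531 in KO at P35, 1.97 times higher in KO. *Cacna2d1* to *Cacna1s* was 0.675 to 0.935 in WT and 0.599 to 0.720 in KO at P35, with overlap, and 0.623 to 0.671 against 0.486 to 0.576 at P21, without. At P1 the *Cacng1* ratio was 0.686 to 0.753 in WT, above all later WT libraries, and 0.644 to 0.891 in KO, overlapping KO libraries of P35.

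**Figure D3:**
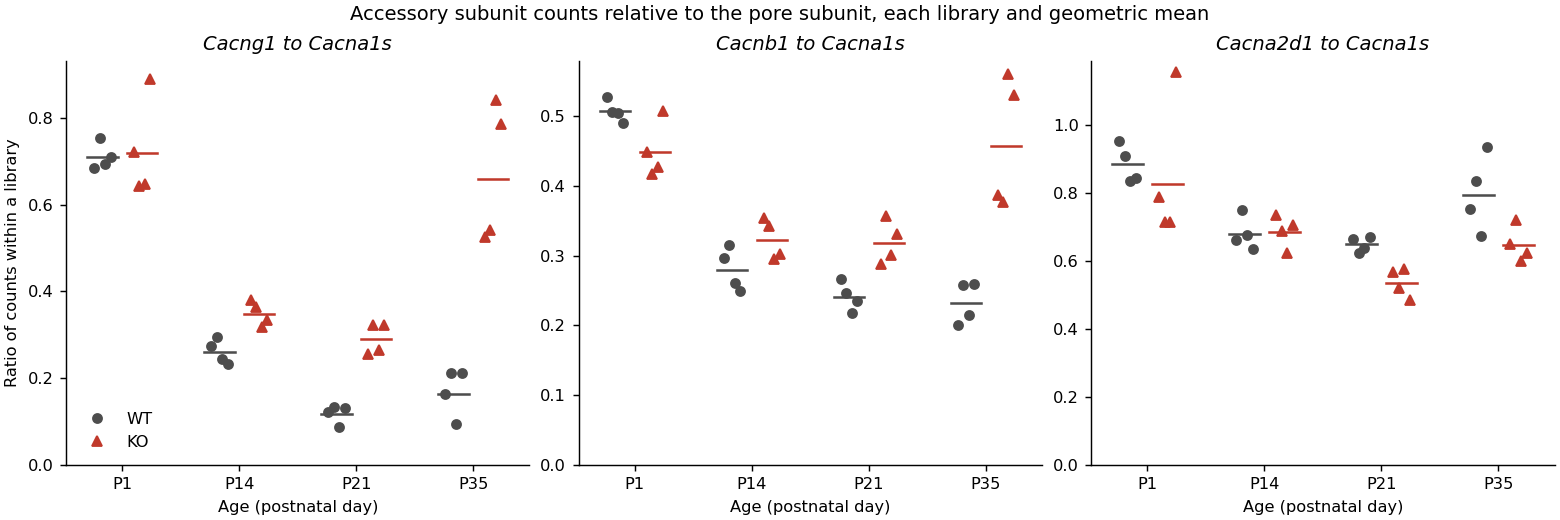
Counts of *Cacng1*, *Cacnb1* and *Cacna2d1* divided by those of *Cacna1s* in the same library (y axis) against age (x axis); points are libraries of WT (grey circles) and KO (red triangles), bars are geometric means of 4. The *Cacng1* ratio drops after P1 in both genotypes, and at P35 KO libraries lie at 0.525 to 0.842 and WT libraries at 0.0948 to 0.212; the 3 ratios were chosen after the values were seen.

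The release channel gene *Ryr1* stood at 2447, 2416, 2169.9 and 2099.5 CPM in KO muscle of P35 and at 4430.0, 2729, 3463 and 3271 CPM in WT. All KO libraries were below all WT libraries, and the difference missed the threshold (log2 -0.58, SE 0.154, adjusted p = 0.0143). It passed without WT P35 replicate 2, the lowest WT library (adjusted p = 0.00825). Over the 8 fits without 1 library the adjusted p ran up to 0.0373. At P21 the genotypes overlapped, with 3806 to 5084 CPM in KO and 4049 to 5394 CPM in WT (log2 -0.13, SE 0.124, adjusted p = 0.503).

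*Casq1* was the member with the lowest fitted value at P21: 3923, 4738, 4755 and 4505 CPM in KO against 6257, 5722, 4835 and 6624 CPM in WT. The highest KO library lay just under the lowest WT library (log2 -0.37, SE 0.115, adjusted p = 0.0464). At P35 it stood at 3980.2, 2337, 3479 and 3633 CPM in KO and at 6468, 5649.8, 3748 and 5429 CPM in WT. These groups overlapped through WT P35 replicate 3 and KO P35 replicate 1 (log2 -0.64, SE 0.207, adjusted p = 0.0323). *Trdn*, whose protein ties calsequestrin to the channel, did not follow: KO libraries of 1523 to 2090.3 CPM lay inside the WT span of 1377 to 2197 CPM (log2 0.05, SE 0.156, adjusted p = 0.807).

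The junctophilin genes differed in the same direction at P35 and neither passed. *Jph2* stood at 735, 587, 812 and 790.5 CPM in KO and at 1438, 1207, 898 and 1081 CPM in WT, without overlap. It missed the threshold narrowly (1.56-fold lower in KO, log2 -0.64, SE 0.157, adjusted p = 0.0102). It passed without WT P35 replicate 3, its lowest WT library (adjusted p = 0.0049). Over the 8 fits without 1 library its adjusted p ran up to 0.0271. *Jph1* stood at 464, 322, 419 and 404 CPM in KO and at 703, 559, 470.1 and 536 CPM in WT, also without overlap (log2 -0.47, SE 0.145, adjusted p = 0.0270). Both were at overlapping levels at P21 (log2 -0.28 and -0.14).

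With an adjusted p under 0.05 in place of 0.01, 8 of the 10 passed at P35, 2 upward and 6 downward, where 41.4% of all genes passed; *Stac3* and *Trdn* did not. At P21 3 did, *Cacng1* and *Cacnb1* upward and *Casq1* downward, where 21% of all genes passed. DESeq2 also called 8 at an adjusted p under 0.01, 2 upward and 6 downward, beside 33.3% of all genes. The downward part depended on scaling. With library totals the median of all genes at P35 moved from 0.04 to 0.44 (log2), and 6308 of 15595 genes passed upward and 546 downward. Of the members 3 passed, all upward: *Cacng1* (1.92), *Cacnb1* (0.93) and *Stac3* (0.55), with *Cacna2d1* at -0.36 (adjusted p = 0.0279) and *Ryr1* at -0.17 (adjusted p = 0.335). At P21 the median moved from 0.01 to 0.20, and 2544 of 15179 genes passed upward and 199 downward. *Cacng1* (1.46) and *Cacnb1* (0.56) passed upward, and the small differences of *Ryr1*, *Cacna1s*, *Jph1* and *Trdn* changed sign. Mitochondrially encoded genes, which were left in, took 12.4 to 17.9% of counts in WT libraries of P35 and 10.3 to 10.5% in KO libraries; without them in the scaling *Cacnb1* lost its call (adjusted p = 0.0103).

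**Figure D4:**
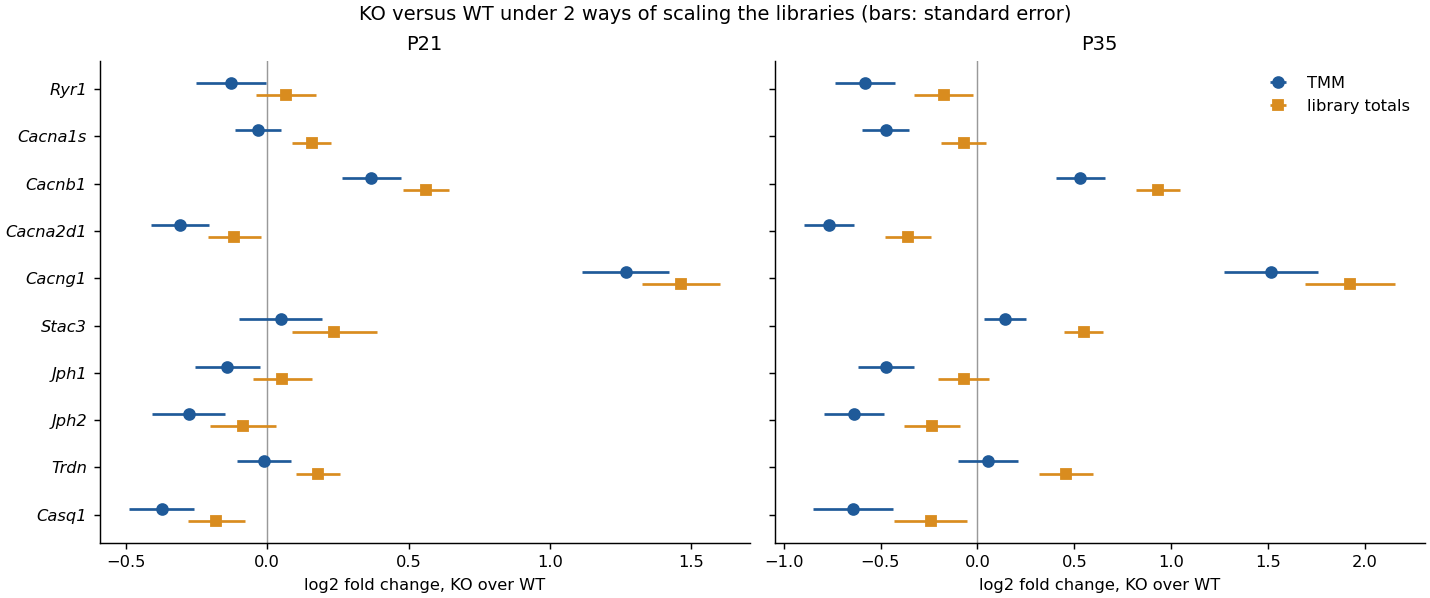
Difference between genotypes (x axis, log2 fold change of KO over WT; bars, standard error) for each gene at P21 and P35 under TMM scaling (blue circles) and under library totals (orange squares). Totals move every gene to the right; *Cacng1* lies above 1 under both at both ages, while *Ryr1*, *Cacna1s*, *Jph1* and *Trdn* cross 0 at P21, and at P35 *Cacna2d1* keeps its sign at -0.36.

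Whether a genotype difference changed with age was tested by the interaction of genotype and age over all 32 libraries, and no member passed by edgeR or DESeq2. *Cacng1* came nearest between P14 and P21: the difference between genotypes grew by 1.03 (log2, SE 0.271, adjusted p = 0.0506), where 0.425% of 18583 genes passed. It passed in a fit of only the 16 libraries of both ages (1.02, adjusted p = 0.00862) and with library totals (1.16, adjusted p = 0.00687), but in none of the 16 fits without 1 library (0.89 to 1.12). Between P21 and P35 the nearest was *Cacna2d1* (log2 -0.47, SE 0.172, adjusted p = 0.145), where 0.463% of genes passed, and between P1 and P14 no member had an adjusted p under 0.867, where 0.0161% passed. At an unadjusted p under 0.05 stood 1 member between P21 and P35, 1 between P14 and P21 and 0 between P1 and P14. No share of all genes is given at that level, so these counts are not read as a result about the members.

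Counts of the pore subunit, the channel and the store were also set against each other within each library. *Cacna1s* to *Ryr1* differed by 0.10 at P35 (log2 of the count ratio, KO minus WT; exact permutation test, two-sided, p = 0.257) and by 0.09 at P21 (p = 0.229, exact test). *Casq1* to *Ryr1* differed by -0.08 at P35 (p = 0.743, exact permutation test) and by -0.24 at P21 (p = 0.171, exact test). Over all 20 tests of 5 ratios at 4 ages, none had an adjusted p under 0.05. The smallest was 0.190, and 0.0286 is the smallest p this design allows. That smallest p was reached by *Jph2* to *Jph1* at P1 (log2 -0.38, with no overlap) and by both isoform ratios given next. After adjustment over 20 tests, a few ratios at that smallest p could not get under 0.05. The lack of a pass therefore does not show that the ratios were unchanged.

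*Ryr3* and *Casq2* encode the ryanodine receptor of immature muscle and the calsequestrin of slow and cardiac muscle. In WT muscle *Ryr3* was at 35.7 to 48.6 CPM at P1 and at 0.184 to 0.855 CPM at P35, and *Casq2* at 721 to 959 CPM and at 59.6 to 148 CPM. Between P1 and P14 both fell in WT (log2 -3.21 and -1.69) and in KO (log2 -2.90 and -1.30), opposite to *Ryr1* and *Casq1*. At P35 *Ryr3* stood at 0.713 to 1.15 CPM in KO (log2 1.11 over WT, adjusted p = 0.0590), from 40 to 70 counts a library against 8 to 36 in WT. *Casq2* overlapped between genotypes at P35 (log2 0.19, adjusted p = 0.595). The *Ryr3* to *Ryr1* ratio was 3.73 times as high in KO as in WT at P35 (log2 1.90; exact permutation test p = 0.0286, adjusted p = 0.190), and *Casq2* to *Casq1* differed at P1 (log2 0.26; exact p = 0.0286, adjusted p = 0.190). *Ryr3* shares 916 exon bases with *Aven* on the other strand, which reached 23.7 CPM, so its low values are uncertain.

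Of 20 other isoforms of the members' families, 16 were tested at P35 and 3 passed, where 24.5% of all genes did. *Cacna2d4*, a further alpha2-delta subunit, was at 14.3 to 42.2 CPM in WT and 0.605 to 2.41 CPM in KO (log2 -3.97, SE 0.481, adjusted p = 0.000322). *Cacng7*, a gene of the gamma family, was at 13.3 to 17.6 CPM in WT and 6.28 to 7.70 CPM in KO (log2 -1.17, SE 0.112, adjusted p = 0.000131). *Cacng4*, of the same family, was at 4 to 5 counts a WT library and at 25 to 48 in KO (log2 2.26, SE 0.329, adjusted p = 0.000745). *Cacna1c*, the cardiac pore subunit gene, missed at P35 (log2 -0.50, adjusted p = 0.0277). At P21 0 of 16 passed, where 8.13% of genes did, and DESeq2 called 2, beside 2564 of all genes. At an unadjusted p under 0.05 stood 6, a count not read as a result because no share of all genes is given at that level. The nearest were *Cacna2d4* (log2 -1.12, adjusted p = 0.0130), *Cacna1d* (log2 -1.06, adjusted p = 0.0234), *Cacng7* (log2 -0.46, adjusted p = 0.0249) and *Cacna2d2* (log2 -0.62, adjusted p = 0.0525).

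*Cacna2d4* and *Cacng7* also passed the interaction between P21 and P35, where 0.463% of genes did. Their genotype differences moved by -2.86 (SE 0.585, adjusted p = 0.00875) and -0.73 (SE 0.144, adjusted p = 0.00707). These isoforms were named for small adjusted p at P21 and P35, values that enter the interaction. The pass is therefore no separate support and is not set against the members. In WT muscle both rose from P21 to P35, *Cacna2d4* by 2.48 (adjusted p = 0.00476) and *Cacng7* by 0.73 (adjusted p = 0.00484), on the log2 scale. In KO muscle the libraries of P21 were at 1.66 to 2.47 CPM (*Cacna2d4*) and 5.64 to 7.80 CPM (*Cacng7*) and overlapped those of P35 in both genes.

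Among 30 regulators and structural partners of the triad, 13 passed at P35, 4 upward and 9 downward, against 12% of all genes upward and 12.5% downward. Their median difference was -0.21 (log2). The largest fall was that of *Homer1*, a scaffold that binds ryanodine receptors (119 to 44.5 CPM on average, log2 -1.40, SE 0.134, adjusted p = 0.000131). *Fsd2*, a myospryn relative, fell by 1.12 (log2, SE 0.0935, adjusted p = 7.62e-05). The upward calls included *Cav3*, muscle caveolin (log2 0.77, SE 0.0723, adjusted p = 0.000118), and *Trim72*, a membrane repair protein (log2 0.79, SE 0.0975, adjusted p = 0.000344). *Bin1*, which shapes T-tubules, and the cation channel gene *Tmem38b* were the other two upward. The downward calls also included *Calm3*, *Cmya5*, *Sypl2*, *Srl* and *Speg*, between -0.86 and -0.59. *Dnm2*, a membrane-severing dynamin (log2 0.15), and *Mtmr12*, the binding partner of myotubularin (log2 -0.21), did not pass. With library totals 11 passed upward and 3 downward, where 6308 of 15595 genes passed upward and 546 downward. *Homer1* (-0.99) and *Fsd2* (-0.72) were among the partners still lower.

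At P21 7 of the 30 passed, 1 upward (*Trim72*, log2 0.62, adjusted p = 0.00922) and 6 downward, where 4.74% and 3.39% of genes did. *Homer2* fell 1.98-fold (log2 -0.99, SE 0.164, adjusted p = 0.00369), *Fsd2* by 0.58 (log2, adjusted p = 0.00417) and *Srl*, a calcium-binding protein of the reticulum, by 0.47 (adjusted p = 0.00575). *Sypl2* and *Calm3* fell by 0.59 and 0.41 (log2). This count leaned on single libraries: it was 5 without WT P21 replicate 3, 3 without KO P21 replicate 1 or 3, 2 without WT P21 replicate 1, 2 or 4, and 0 without KO P21 replicate 2 or 4. With library totals the split at P21 was 6 upward and 2 downward, where 2544 of 15179 genes passed upward and 199 downward.

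**Figure D5:**
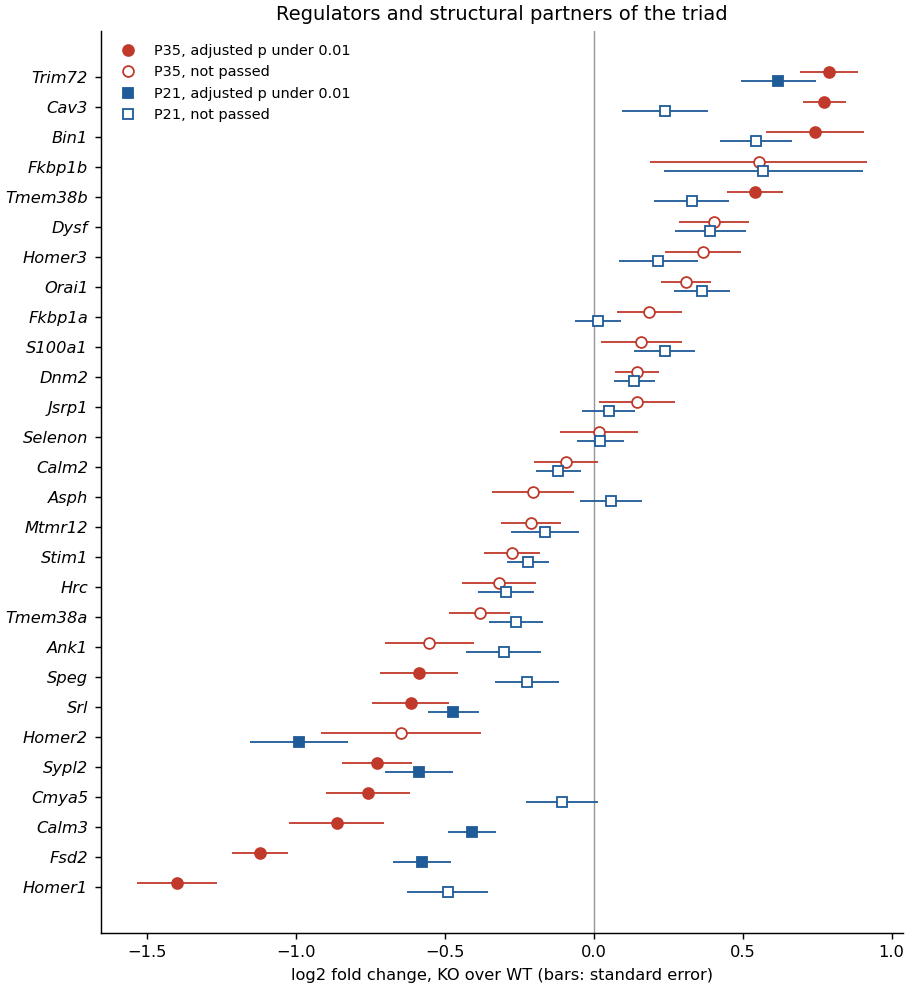
Difference between genotypes (x axis, log2 fold change of KO over WT; bars, standard error) for 28 of the 30 regulators and partners of the triad, ordered by the value at P35 (red circles), with P21 beside it (blue squares); filled points passed an adjusted p of 0.01 in edgeR with TMM scaling. *Homer1* is lowest at P35 (-1.40) and *Trim72* highest (0.79). With library totals in place of TMM 3 downward calls at P35 were made over all 30 genes, against 9. Over all genes tested the downward calls were 546 with library totals and 1954 with TMM.

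Across the 32 libraries the 10 genes moved closely together: over their 45 pairs Pearson's r of log2 CPM ran from 0.470 to 0.991 with a median of 0.957, all 10 having risen from P1 to P14. Taken as deviations from the 8 group means, r ran from 0.392 to 0.922 with a median of 0.736. The libraries share depth, scaling and dissection, so these values describe the set only. Among 8523 other genes with at least 10 CPM on average, those most like *Ryr1* included *Cmya5* (r = 0.996), *Atp2a1* (0.991), *Prkaa2* (0.989) and *Mfn2* (0.989). By deviations they included *Cmya5* (0.976), *March6* (0.921), *Scn4a* (0.918) and *Txlnb* (0.916). Those most like *Casq1* were *Actn3* (0.994), *Myl1* (0.993), *Capzb* (0.992), *Sucla2* (0.992) and *Mybpc2* (0.991), and by deviations *Hhatl* (0.961), *Sh3bgr* (0.946), *Pvalb* (0.945), *Tmod4* (0.945) and *Capzb* (0.941).

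Fibre markers moved beside these results. Of 10 skeletal muscle fibre genes 5 passed downward and 1 upward at P35, with a summed level of 79292 to 97062 CPM in WT and 50951 to 60205 CPM in KO. Their median difference of -0.67 (log2) stood beside -0.47 for the 10 triad genes. None of 10 fast fibre genes passed (median -0.47; summed level 123024 to 184763 CPM in WT and 83035 to 116652 CPM in KO). Of 8 slow fibre genes 7 passed upward (summed level 172 to 344 CPM in WT and 1198 to 2637 CPM in KO), as did 5 of 6 embryonic and neonatal genes, with *Actc1* downward and a summed level of 2186 to 2761 CPM in WT and 260.3 to 782 CPM in KO. Macrophage genes passed upward in 4 of 6 at P21 and at P35, and adipocyte genes in 3 of 4 at P35. Satellite cell genes passed downward in 2 of 4 at P21 and at P35, and endothelial genes in 1 of 4 at P35 (summed level 282 to 532 CPM in WT and 249.8 to 314 CPM in KO). No Schwann cell gene passed at P35, by edgeR, though all 4 were at an unadjusted p under 0.05 (summed level 46.7 to 394 CPM in WT and 204 to 860.3 CPM in KO). For that unadjusted level no share of all genes is given. Over all genes 12% passed upward and 12.5% downward at P35, and 4.74% and 3.39% at P21. Cardiomyocyte genes, 6 in all, summed to at most 24.7 CPM in any library, and 3 of them were at 0 in all WT libraries of P35. The part of these in the members' differences was not tested.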

How the data were processed

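The 32 libraries of skeletal muscle RNA are labelled as WT or *Mtm1* KO, 4 for each genotype and age. The study's methods describe the ages P14, P21 and P35, and P1 is named in its results and in the labels. Libraries were made with poly(A) selection and a directional kit. The authors deposited expected counts per gene, which the submitters' processing notes tie to STAR 2.6.1 and RSEM 1.2.22, while the methods name HTSeq; 4.26% of the values were not whole, and the strand setting of the counting is not given in the sources used here. Overlapping genes on the other strand reached at most 0.187 CPM at the 10 members.

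The expected counts were rounded before any test. Genes were kept by filterByExpr with a minimum count of 10, scaled by TMM and tested in edgeR 4.0.16 (quasi-likelihood, R 4.3.3) with limma 3.58.1, each comparison on its own 8 libraries and the interactions on all 32. Benjamini-Hochberg adjusted p-values were taken over all genes tested; a gene passed at 0.01 and was a differentially expressed gene (DEG) at a fold of 1.5 as well. DESeq2 1.42.0, RLE size factors, library totals, scaling without mitochondrial genes, other filters, a replicate block, 1 fit of all libraries and the omission of each library were alternatives. The fit was tested on simulated data. Levels are CPM on TMM-scaled totals over all libraries. At 49321035 to 85631408 counts per library, the 10 members were well counted, while *Ryr3* and *Cacng4* at P35 rest on few counts.

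Same-numbered WT and KO libraries deviated together at P14 (correlation 0.486 to 0.840 in the 4 pairs). WT replicate 2 with KO replicate 1 (0.728) and WT replicate 1 with KO replicate 2 (0.559) did so as well. The number was taken as a possible pairing only and used as a block in an alternative fit. At P1 all 4 same-numbered correlations were negative, and at P21 and P35 not every pair deviated together. No 2 libraries of a group agreed within sampling noise. All 10 members were named, with *Ryr3*, *Casq2* and the 4 genes of each other list with the smallest adjusted p at P21 and at P35; the other partners were named after their values were seen, beside the counts, and 2 of the 30 are not reported here. Members and lists were chosen with earlier results of these data known. RefSeq promoter windows (GRCm38.p6) were cut 51 bases before the listed start. Figures were drawn with matplotlib 3.10.9.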

Additional observations from a re-analysis of the deposited data

Results flagged for a closer look

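In each group of 4 libraries the highest and lowest values of the 10 genes were set against the gap to their neighbour (Dixon's criterion at 95%). Of 80 groups 4 held a library beyond it, and chance alone gives about 1 in 20. *Cacng1* in WT muscle of P35 had 1 low library, replicate 3, at 95.1 CPM against 187 to 206 CPM in the others. *Cacna1s* in KO muscle of P35 had 1 high library, replicate 1, at 806 CPM against 687 to 703 CPM. In WT muscle of P1 replicate 2 was high for *Stac3* (49.7 CPM against 40.6 to 41.8) and for *Trdn* (176 CPM against 125 to 132).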

How the results depend on the processing

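The rise of all 10 genes from P1 to P14 and the calls of *Cacng1* at P21 and P35 and their direction held under every alternative run, including the omission of each library; that of *Cacna2d1* at P35 was lost with library totals alone. The number of members passed changed more elsewhere. With DESeq2 it was 2 at P21 and 8 at P35 (1 and 3 in edgeR). In WT muscle it was 2 from P14 to P21, where DESeq2 called 3132 of all genes and edgeR 1523. It was 1 from P21 to P35, where they called 2149 and 718. In KO muscle it was 1 from P14 to P21, where they called 3462 and 1611. With library totals it was 2 at P21 and 1 in WT muscle from P21 to P35, where 518 of all genes passed. It was 1 for the change of the KO effect from P14 to P21, where 170 of all genes passed. A fit of the 16 libraries of both ages alone also gave 1, where 92 of all genes passed. With all 32 libraries in 1 fit it was 5 at P35 and 1 in KO muscle from P14 to P21, where 2960 of all genes passed. At an adjusted p of 0.05 it was 3 at P21, 8 at P35, and 1 in WT muscle from P21 to P35 and in KO muscle from P14 to P21. For the age steps no share of all genes is given at 0.05, so these counts are not read as a result about the members. Not every changed call is named here. Over 130 results of the members DESeq2 gained 10 calls and lost 0. Library totals gained 4 and lost 2, and RLE size factors gained 1 and lost 1. Scaling without mitochondrial genes gained 0 and lost 2. Over all genes edgeR called 8 at P1 and DESeq2 218, and at P21 1234 and 2564. At P35 edgeR called 3827 of all genes, DESeq2 5186, library totals 6854 and 1 fit of all 32 libraries 5748. Library totals called 2743 of all genes at P21. Among isoforms the count at P21 was 2 with DESeq2, 1 with no filter and 1 with all 32 libraries, and at P35 5 with library totals and 5 with all 32 libraries. Among partners at P21 it was 13 with DESeq2 and 0 to 5 without 1 library.

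With the replicate number as a block, 0 members passed in WT muscle from P14 to P21, where 144 of all genes did (*Cacng1* had an adjusted p of 0.0130). In KO muscle from P21 to P35 1 passed, *Cacna1s*, where 80 of all genes did (*Ryr1* had an adjusted p of 0.0134). With the block 2 partners passed at P21, where 1131 of all genes did, and *Cacnb1* at P35 was no longer called (log2 0.52, adjusted p = 0.0178). The block turned *Cacna1s* (-0.027) and *Cacng1* (-0.013) at P1 and the change of the KO effect of *Casq1* from P1 to P14 (0.017). The numbers are not shown to pair libraries. At P14 replicates 1 and 2 also deviated together across numbers (0.728 and 0.559). Same-numbered correlations were -0.464 to -0.0271 at P1, -0.0786 to 0.317 at P21 and -0.117 to 0.281 at P35. No other call of a member changed with the block.

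Library totals turned *Cacna1s* (0.16), *Jph1* (0.054), *Ryr1* (0.066) and *Trdn* (0.18) between genotypes at P21, *Cacna1s* (-0.029) and *Cacna2d1* (-0.095) in WT muscle and *Cacng1* (-0.022) in KO muscle from P14 to P21, and *Jph1* (0.10) in KO muscle from P21 to P35. They also turned the change of the KO effect of *Casq1* from P1 to P14 (0.037) and from P14 to P21 (0.0075) and of *Jph2* from P14 to P21 (0.024). *Cacng1* at P1 turned with DESeq2 (-0.0011), RLE (-0.0012), no filter (-0.0018) and all 32 libraries (-0.0071), as did *Cacng1* in KO muscle from P14 to P21 with no filter (-0.00078) and *Stac3* in WT muscle from P21 to P35 with all 32 libraries (0.0069). None of these values was called. Without 1 library in turn the sign of some values near 0 changed, and their lowest and highest log2 values follow. Those for KO against WT at P1 were *Cacna1s* (-0.12 to 0.24), *Cacnb1* (-0.30 to 0.0071), *Cacng1* (-0.10 to 0.15), *Jph1* (-0.035 to 0.35) and *Stac3* (-0.12 to 0.051). Those for KO against WT at P21 were *Cacna1s* (-0.074 to 0.0025), *Stac3* (-0.041 to 0.16) and *Trdn* (-0.11 to 0.052). Those for the KO effect at P14 against P1 were *Cacna2d1* (-0.15 to 0.043), *Casq1* (-0.18 to 0.14), *Jph2* (-0.18 to 0.19), *Ryr1* (-0.32 to 0.015) and *Trdn* (-0.11 to 0.19). Those for KO against WT at P14 were *Cacnb1* (-0.046 to 0.064). Those for WT muscle, P21 against P14 were *Cacnb1* (-0.14 to 0.012) and *Casq1* (-0.15 to 0.0085). Those for KO muscle, P21 against P14 were *Cacng1* (-0.040 to 0.075) and *Trdn* (-0.16 to 0.011). Those for the KO effect at P21 against P14 were *Jph1* (-0.061 to 0.11), *Jph2* (-0.19 to 0.015) and *Trdn* (-0.016 to 0.21). Those for KO muscle, P35 against P21 were *Jph1* (-0.11 to 0.060) and *Stac3* (-0.0012 to 0.19). Those for WT muscle, P35 against P21 were *Jph2* (-0.18 to 0.048), *Stac3* (-0.096 to 0.10) and *Trdn* (-0.029 to 0.19). Those for the KO effect at P35 against P21 were *Stac3* (-0.036 to 0.17) and *Trdn* (-0.057 to 0.16). Those for KO against WT at P35 were *Trdn* (-0.062 to 0.16) and *Casq2* (-0.019 to 0.36). Those for a log2 ratio were *Ryr3* to *Ryr1* at P1 (-0.084 to 0.034), *Ryr3* to *Ryr1* at P14 (-0.0044 to 0.87), *Casq2* to *Casq1* at P21 (-0.36 to 0.11), *Jph2* to *Jph1* at P14 (-0.0062 to 0.019), *Casq1* to *Ryr1* at P1 (-0.083 to 0.027) and *Casq1* to *Ryr1* at P35 (-0.24 to 0.11). The causes were not tested.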
